A study of Mus musculus with 12 samples.

Results

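The genes described here are 10 genes of the NRF2 antioxidant pathway in mouse liver: Nfe2l2, Keap1, Nqo1, Gclc, Gclm, Hmox1, Srxn1, Txnrd1, Slc7a11 and Osgin1. They were taken as a list of known pathway members by their symbols in the platform annotation, with the probe set of highest mean for each gene, and all 10 were found among 22180 named genes. Liver RNA of male C57BL6 mice was measured in 12 samples on Affymetrix arrays, 1 array per sample and 3 per group. The groups were high-fat MSX (45% of energy from fat, with 0.5% w/w of MSX), high-fat control (the same diet without extract), low-fat MSX (10% of energy from fat, with 0.5% w/w of MSX) and low-fat control (that diet without extract). MSX is a food-grade extract of maple syrup enriched in phenols, eaten in the diet for 12 weeks from 6 to 18 weeks of age. The labels name no other agent and no altered allele, and in them a group's arrays are biological replicates, with no word on whether animals were pooled.

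Nfe2l2 encodes NRF2, a transcription factor that is held in the cytoplasm and marked for degradation by KEAP1, a cysteine-rich adaptor of a ubiquitin ligase. Electrophiles and oxidants modify cysteines of KEAP1, NRF2 then accumulates, pairs with small MAF proteins and binds antioxidant response elements near genes of glutathione synthesis, thiol reduction, quinone reduction and heme breakdown. In liver these genes are part of the defence against reactive drugs, metabolites and peroxides, and the activity of NRF2 is set largely at the protein level, which arrays do not measure. The array values are log2 probe set summaries, so that a difference of 1 is a 2-fold difference. Levels of different genes are not set against each other, because probe sets differ in their response.

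Array medians lay between 4.68 and 4.75, and arrays correlated with each other at 0.973 or more. The mean of 5 hepatocyte markers, Alb among them, lay between 13.03 and 13.21 in the 12 arrays. In low-fat MSX replicate 3 all 10 members lay below their own 12-array mean, with a median deviation of −0.32, and 3 members had their lowest value there. The other 11 arrays had median deviations between −0.13 and 0.16.

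No member passed the threshold, an adjusted p under 0.05 by limma with Benjamini-Hochberg adjustment over the 22180 genes, in any of the 7 comparisons. The differences with an unadjusted p under 0.05 between 2 groups were lower Srxn1 with MSX under both diets, lower Nqo1 with MSX under the high-fat diet, and higher Hmox1, Gclm and Nqo1 under the high-fat diet without extract, as well as Osgin1, which was higher in high-fat MSX livers than in low-fat MSX livers. Nfe2l2, Keap1, Txnrd1 and Slc7a11 had absolute differences of at most 0.18 in the 4 comparisons of 2 groups.

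**Figure D1:**
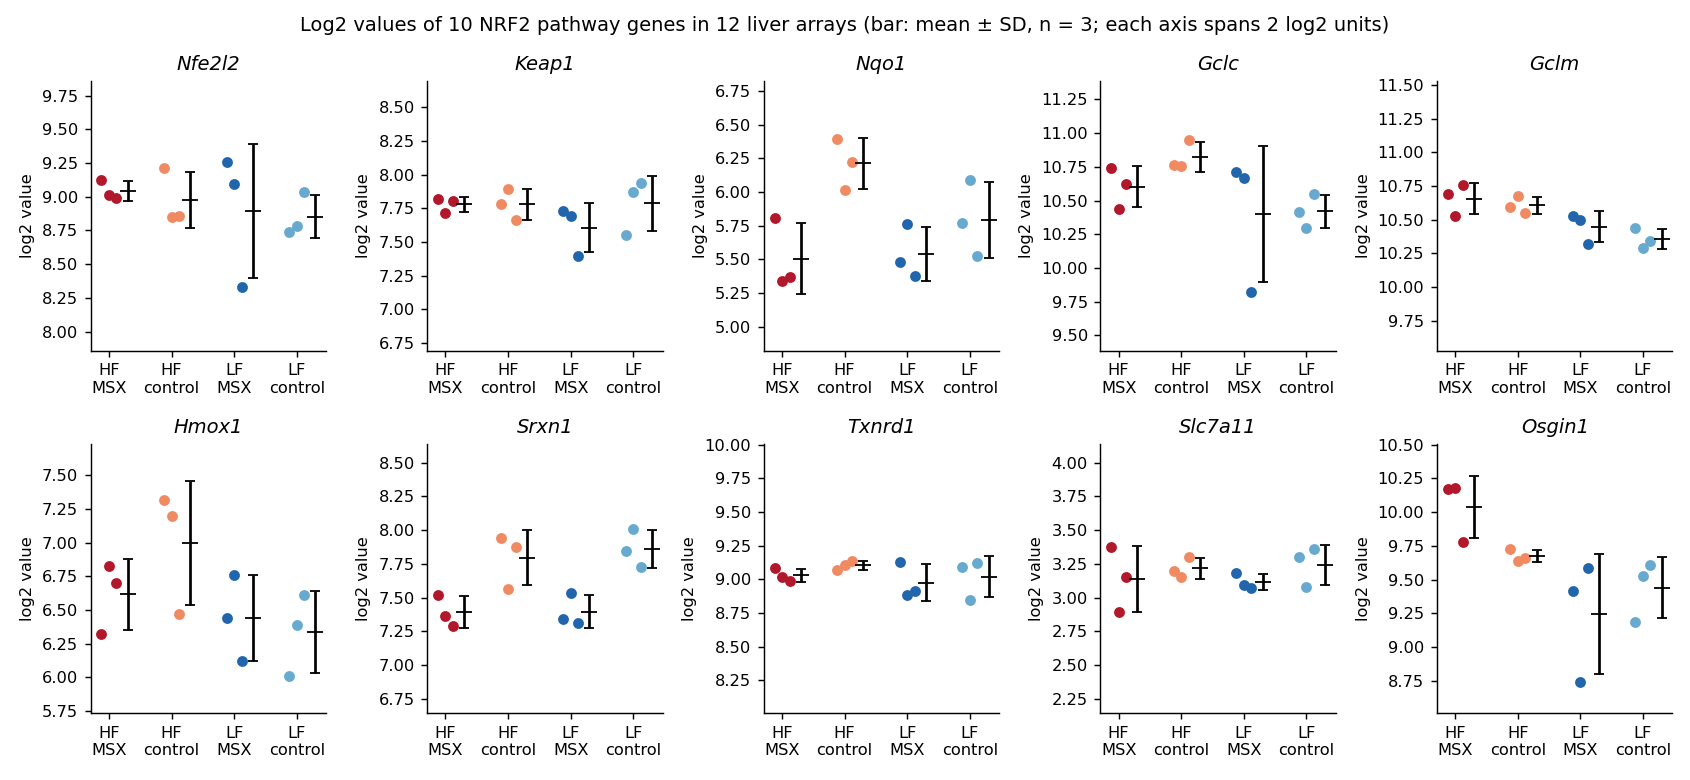
Log2 value (vertical axis) of each of 10 genes in the 4 groups (HF, high-fat; LF, low-fat), with a point for each array and the mean ± SD beside the points (n = 3). Each panel spans the same number of log2 units, so that spreads can be compared by eye: Srxn1 is lower in both MSX groups than in the control of the same diet, and Nfe2l2 and Gclc have 1 low array in the low-fat MSX group, replicate 3, at 8.33 and 9.82.

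High-fat MSX livers were compared with high-fat controls to ask what the extract did to the pathway under the high-fat diet. Of the 10 members, 0 passed the threshold, where 0.0361% of all genes did. An unadjusted p under 0.05 was found for Nqo1 and Srxn1, both lower, which makes 2 lower and 0 higher, where 3.51% of all genes were lower and 3.48% higher by that measure. The groups did not overlap for 3 lower members, Nqo1, Srxn1 and Gclc, and for 1 higher member, Osgin1, where 5.51% of all genes were lower and 6.7% higher without overlap. The median log2 difference of the members was −0.08, with 4 of 10 above 0, where 51.6% of all genes lay above 0. Without 1 array the members' median lay between −0.15 (without high-fat MSX replicate 1) and −0.017 (without high-fat MSX replicate 2). The median over all genes was 0.00600 here and lay between −0.00479 and 0.00639 in the 7 comparisons.

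Under the low-fat diet, low-fat MSX against low-fat control, 0 members passed the threshold, where 0.158% of all genes did. Srxn1 was the 1 member with an unadjusted p under 0.05 and was lower, where 4.03% of all genes were lower and 4.03% higher by that measure. It was also the 1 member whose groups did not overlap, where 6.73% of all genes were lower and 7.13% higher without overlap. The members' median was −0.09, with 3 of 10 above 0, where 49.7% of all genes lay above 0. It was −0.17 without low-fat MSX replicate 1 and −0.032 without low-fat control replicate 3, the ends of its range without 1 array.

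For the diet without extract, high-fat control against low-fat control, 0 members passed the threshold, where 0.018% of all genes did. An unadjusted p under 0.05 was found for 3 members, Hmox1, Nqo1 and Gclm, all higher, where 3.44% of all genes were higher and 3.34% lower by that measure. The groups did not overlap for Gclc, Gclm and Osgin1, 3 members and all higher, where 5.29% of all genes were higher and 6.1% lower without overlap. The members' median was 0.18, with 7 of 10 above 0, where 48.8% of all genes lay above 0, and without 1 array it lay between 0.12 (without low-fat control replicate 1) and 0.23.

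For the diet with extract, high-fat MSX against low-fat MSX, 0 members and 0% of all genes passed. Osgin1 was the 1 member with an unadjusted p under 0.05, higher, where 2.39% of all genes were higher and 2.18% lower by that measure. It was also the 1 member without overlap, where 4.68% of all genes were higher and 4.76% lower without overlap. The members' median was 0.16, with 8 of 10 above 0, where 50.5% of all genes lay above 0, and the median was 0.0095 without low-fat MSX replicate 3. Each of the 4 groups enters 2 of these 4 comparisons, so that the comparisons share arrays.

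Averaged over both diets, the extract gave 0 members past the threshold, where 0.261% of all genes passed, and 2 lower and 0 higher members at an unadjusted p under 0.05, where 4.46% of all genes were lower and 5.2% higher. The average diet effect gave 0 members past the threshold, where 0.0225% of all genes passed, and 4 higher members at an unadjusted p under 0.05, Osgin1, Gclm, Hmox1 and Gclc, where 2.88% of all genes were higher and 3.06% lower. Gclc was close to that limit, and its average diet effect of 0.30 was 0.16 without low-fat MSX replicate 3. For the difference of the extract effects between the diets 0 members and 0% of all genes passed, and 0 members had an unadjusted p under 0.05, where 5.09% of all genes did.

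**Figure D2:**
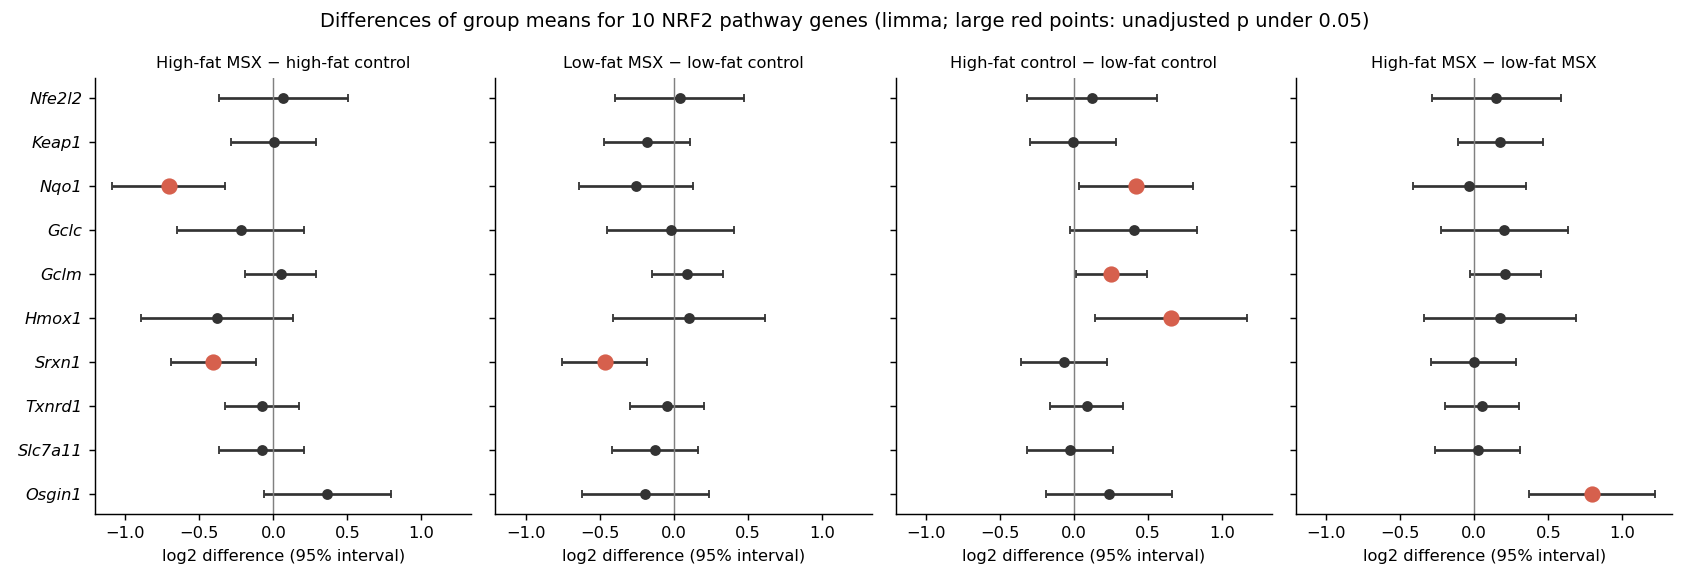
Log2 difference of group means (horizontal axis) for each gene in the 4 comparisons of 2 groups, with its 95% interval from limma, and large red points for an unadjusted p under 0.05. Nqo1 (−0.71) and Srxn1 (−0.40) lie left of 0 with their intervals for the extract under the high-fat diet, Srxn1 (−0.47) under the low-fat diet, Hmox1 (0.66), Nqo1 (0.42) and Gclm (0.25) lie right of 0 for the diet without extract, and Osgin1 (0.79) for the diet with extract.

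Srxn1 encodes sulfiredoxin, which restores overoxidised peroxiredoxins with the use of ATP. Its values were 7.52, 7.36 and 7.29 in high-fat MSX livers, against 7.94, 7.56 and 7.88 in high-fat control livers. They were 7.34, 7.54 and 7.31 in low-fat MSX livers, against 7.85, 8.01 and 7.73 in low-fat control livers. All 6 MSX arrays thus lay below every control array of their diet, a pattern that 0.821% of all genes shared.

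The log2 difference of Srxn1 was −0.40 under the high-fat diet (SE 0.13, limma adjusted p = 0.608) and −0.47 under the low-fat diet (SE 0.13, limma adjusted p = 0.314). Its average extract effect was −0.44, a level 0.74 times that of the controls (SE 0.09, limma adjusted p = 0.0872), which ranked 121 by p among the 22180 genes and missed the threshold. The value passed under 2 other settings, with adjusted p = 0.0256 with a trended robust prior variance and 0.0356 without dim genes, while leaving out any 1 array gave differences between −0.49 and −0.40 and adjusted p of at least 0.0591. The extract effects under the 2 diets differed by 0.06 (high-fat minus low-fat), with a 95% interval from −0.35 to 0.47. Between the diets Srxn1 differed by −0.07 without extract and by 0.00 to 2 decimals with it.

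The RefSeq promoter windows on GRCm38.p6, 250 bases before to 50 bases after a listed start, were searched on both strands for the letters of the antioxidant response element, TGACNNNGC or TGAGNNNGC. Windows were listed for 8 of the 10 members, not for Gclc and Hmox1. Of the 10 windows of these 8 genes (3 for Txnrd1), 6 held a match, 1 each for Nfe2l2, Slc7a11, Gclm, Osgin1 and Txnrd1 and 3 for Srxn1, where 27.8% of all 32851 windows held at least 1. A match is only a description of the letters. The windows of Srxn1 (chr2:152105274-152105573, plus strand), Nqo1 (chr8:107403156-107403455, minus strand) and Osgin1 (chr8:119436897-119437196, plus strand, at a start inside the annotated gene) are shown because these genes had the lowest p for the extract or the diet, with the matches in capitals, each read 5′ to 3′.
Srxn1: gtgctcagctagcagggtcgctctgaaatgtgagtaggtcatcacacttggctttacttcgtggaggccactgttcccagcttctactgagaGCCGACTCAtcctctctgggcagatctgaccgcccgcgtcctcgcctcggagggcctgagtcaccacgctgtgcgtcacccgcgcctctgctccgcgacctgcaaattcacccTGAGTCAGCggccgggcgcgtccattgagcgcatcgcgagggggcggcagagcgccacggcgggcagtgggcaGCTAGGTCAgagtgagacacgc
Nqo1: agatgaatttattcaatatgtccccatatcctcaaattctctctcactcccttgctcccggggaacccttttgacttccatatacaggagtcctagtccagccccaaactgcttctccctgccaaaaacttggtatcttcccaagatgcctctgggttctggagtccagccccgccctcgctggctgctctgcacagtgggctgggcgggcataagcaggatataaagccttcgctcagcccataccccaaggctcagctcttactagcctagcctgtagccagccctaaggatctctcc
Osgin1: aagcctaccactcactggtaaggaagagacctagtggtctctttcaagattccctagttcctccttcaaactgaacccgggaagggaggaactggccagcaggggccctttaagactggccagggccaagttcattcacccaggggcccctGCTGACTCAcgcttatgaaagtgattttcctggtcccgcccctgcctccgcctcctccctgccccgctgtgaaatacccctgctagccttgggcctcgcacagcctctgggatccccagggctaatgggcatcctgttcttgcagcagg

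In the Srxn1 window the matches began at bases −158, −45 and 28, counted from the start as 0. In the Osgin1 window the match began at base −99, and its letters, GCTGACTCA, are the reverse complement of the Srxn1 match TGAGTCAGC at base −45. The Nqo1 window held no match, which says only that these letters are not in its 300 bases.

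Txnrd1 encodes the cytosolic thioredoxin reductase, a selenoprotein that passes electrons from NADPH to thioredoxin. It averaged 9.03 ± 0.05 in high-fat MSX livers and 9.10 ± 0.03 in high-fat control livers, and 8.98 ± 0.14 in low-fat MSX livers and 9.02 ± 0.15 in low-fat control livers (SD, n = 3 each). The range over the 4 group means was 0.13, and the 95% interval of its average extract effect ran from −0.24 to 0.12.

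Nqo1 encodes a quinone reductase that is often used as a readout of NRF2 activity. Its values were 5.81, 5.34 and 5.37 in high-fat MSX livers, against 6.40, 6.02 and 6.23 in high-fat control livers. They were 5.48, 5.76 and 5.38 in low-fat MSX livers, against 5.77, 6.09 and 5.52 in low-fat control livers. The high-fat groups did not overlap, and the low-fat groups did.

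On the high-fat diet the log2 difference of Nqo1 was −0.71, a level 0.613 times that of the control (SE 0.18, limma adjusted p = 0.36), the lowest p of a member in that comparison, at rank 91 of all genes. It lay between −0.86 and −0.61 with any 1 array left out. Under the low-fat diet it was −0.25 (95% interval −0.64 to 0.13), and −0.39 without low-fat control replicate 3 or −0.11 without low-fat control replicate 2. The test of the difference between both extract effects gave −0.45 (SE 0.25, limma adjusted p = 0.955), so that the effect was not shown to depend on the diet. High-fat control livers were higher than low-fat control livers by 0.42 (SE 0.18, limma adjusted p = 0.698), with 0.28 to 0.56 without 1 array, and high-fat MSX differed from low-fat MSX by −0.03 (95% interval −0.41 to 0.35).

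Glutathione is made in 2 steps, the first catalysed by glutamate-cysteine ligase, whose catalytic subunit is Gclc and whose modifier subunit is Gclm. Gclm was at 10.69, 10.53 and 10.76 in high-fat MSX livers and at 10.60, 10.68 and 10.55 in high-fat control livers. It was at 10.53, 10.50 and 10.32 in low-fat MSX livers and at 10.44, 10.29 and 10.34 in low-fat control livers. The high-fat control arrays all lay above the low-fat control arrays.

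The log2 difference of Gclm between high-fat control and low-fat control was 0.25 (SE 0.11, limma adjusted p = 0.717), and between high-fat MSX and low-fat MSX 0.21 (SE 0.11, limma adjusted p = 0.999). Averaged over both it was 0.23 (SE 0.08, limma adjusted p = 0.69), a level 1.17 times that of the low-fat diet. With the extract it differed by 0.05 on the high-fat and 0.09 under the low-fat diet, with 95% intervals from −0.19 to 0.29 and from −0.15 to 0.33.

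Gclc was at 10.74, 10.44 and 10.62 in high-fat MSX livers and at 10.76, 10.76 and 10.95 in high-fat control livers. It was at 10.71, 10.67 and 9.82 in low-fat MSX livers and at 10.42, 10.30 and 10.54 in low-fat control livers. The high-fat control arrays lay above all low-fat control arrays and above all high-fat MSX arrays, and low-fat MSX replicate 3 lay below the other 11. The lowest high-fat control array, at 10.76, was close to the highest high-fat MSX array, at 10.74. The diet difference without extract was 0.40 (SE 0.20, limma adjusted p = 0.752). The extract difference was −0.22 under the high-fat diet (95% interval −0.65 to 0.21) and −0.02 under the low-fat diet. Without low-fat MSX replicate 3 the low-fat extract difference of Gclc was 0.27 (−0.18 without low-fat MSX replicate 1), and the difference between high-fat MSX and low-fat MSX was −0.09 in place of 0.20, neither past the threshold.

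Slc7a11 encodes the light chain of the cystine importer that supplies cysteine for glutathione. It was dim in liver, with values between 2.89 and 3.38, below the median of all probe sets, and it was the 1 member that a filter at that median removed. Its group means lay between 3.12 and 3.24, and the differences of its other probe set lay between −0.09 and 0.10. The 95% interval of its average extract effect ran from −0.31 to 0.10.

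Hmox1 encodes heme oxygenase, which opens heme to biliverdin, iron and carbon monoxide and is known to be strongly expressed in Kupffer cells, the macrophages of the liver. Its values were 6.32, 6.83 and 6.70 in high-fat MSX livers, against 7.32, 7.20 and 6.47 in high-fat control livers. They were 6.44, 6.76 and 6.12 in low-fat MSX livers, against 6.01, 6.39 and 6.61 in low-fat control livers. High-fat control replicates 1 and 2 had the highest values of the 12 arrays, while replicate 3 lay within the range of the low-fat control group.

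Between high-fat control and low-fat control Hmox1 differed by 0.66, a level 1.58 times as high (SE 0.24, limma adjusted p = 0.615). That difference lay between 0.50 without low-fat control replicate 1 and 0.92 without high-fat control replicate 3. On the high-fat diet the extract difference was −0.38 (95% interval −0.89 to 0.13; −0.64 without high-fat control replicate 3 and −0.22 without high-fat control replicate 1), and under the low-fat diet 0.10 (95% interval −0.41 to 0.62). Without low-fat MSX replicate 3 the low-fat value was 0.26, and without low-fat control replicate 1 it was −0.06. Between high-fat MSX and low-fat MSX the difference was 0.18, and 0.017 without low-fat MSX replicate 3.

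Over the 12 arrays the mean of 9 of 9 Kupffer cell and macrophage markers moved with Hmox1. Group averages of this mean were 7.63 in high-fat MSX, 7.63 in high-fat control, 7.61 in low-fat MSX and 7.37 in low-fat control livers. The averages of the high-fat groups were alike to 2 decimals, but the high-fat control arrays were spread from 6.88 to 8.10. Hmox1 differed by −0.38 between these groups. Among the high-fat control arrays it was lowest, at 6.47, in the array with the lowest marker mean. For the extract under the low-fat diet 8 of the 9 markers lay above 0, and 1 was lower at an unadjusted p under 0.05. Over all genes 49.7% lay above 0 and 4.03% were lower at such a p there. For the diet without extract 8 of the 9 also lay above 0, with a median of 0.24, where 48.8% of all genes lay above 0. At such a p 0 were higher and 0 lower, where 3.44% of all genes were higher and 3.34% lower. For the extract under the high-fat diet 4 of the 9 lay above 0, where 51.6% of all genes did. The marker mean ranged from 7.60 to 7.69 in high-fat MSX livers and from 6.88 to 8.10 in high-fat control livers. It ranged from 7.37 to 7.78 in low-fat MSX livers and from 7.17 to 7.75 in low-fat control livers. Among the high-fat control arrays it was 8.10 in replicate 1, 7.90 in replicate 2 and 6.88 in replicate 3, the highest, the next and the lowest of the 12. Across the 12 arrays Pearson's r of Hmox1 with this mean was 0.71 (permutation p = 0.00722) and Spearman's rho was 0.64 (permutation p = 0.0315), two-sided. This was the only such relation computed, and it was chosen after its values were seen. Its p-values therefore cannot serve as a test, and the permutations took all 12 arrays as exchangeable, whatever their group. Without the 2 arrays farthest from the median of the markers r was 0.88, and r of the deviations from the group means was 0.81. In a piece of liver, more cells of a type and more RNA per cell cannot be told apart, and the part of the markers in the Hmox1 difference was not tested.

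Of 7 pericentral hepatocyte markers, 1 passed the threshold, lower, with MSX under the low-fat diet (limma adjusted p = 0.0492), where 0.158% of all genes passed. In the average extract effect 1 also passed, lower (limma adjusted p = 0.0143), where 0.261% of all genes passed. Of the 7, 4 lay above 0 in the first of these comparisons and 3 in the second. Oat, 1 of the 7, lay between 11.06 and 11.48 in low-fat MSX livers, against 11.89 to 12.12 in low-fat control livers. Cyp1a2, another of the 7, lay between 11.58 and 11.70 in high-fat MSX livers, against 11.01 to 11.08 in high-fat control livers. For the extract under the high-fat diet 1 of the 7 was higher and 1 lower at an unadjusted p under 0.05. Over all genes 3.48% were higher and 3.51% lower there. In the average extract effect 1 was likewise higher and 1 lower, where 5.2% of all genes were higher and 4.46% lower. Markers of other cell types differed between the groups at an unadjusted p under 0.05. Of 7 stellate cell and matrix markers, 3 were higher at such a p for the diet without extract, where 3.44% of all genes were. Their median there was 0.48. For the extract under the high-fat diet 3 were lower, with a median of −0.18, where 3.51% of all genes were lower. Under the low-fat diet all 7 lay above 0 with the extract, with a median of 0.29, where 49.7% of all genes lay above 0. At such a p 1 was higher there, where 4.03% of all genes were. In the difference of the extract effects 4 were lower at such a p, where 5.09% of all genes had one in either direction. In these comparisons 0 of the 7 markers passed the threshold. Their mean ranged from 6.61 to 7.05 in high-fat MSX livers, from 6.78 to 7.70 in high-fat control livers, from 6.92 to 7.34 in low-fat MSX livers and from 6.60 to 6.82 in low-fat control livers. Of 6 measured lymphocyte markers, 2 were higher at such a p for the diet without extract, where 3.44% of all genes were. The group averages of the mean of these 6 were 5.05 in high-fat MSX and 5.22 in high-fat control livers. They were 4.96 in low-fat MSX and 4.98 in low-fat control livers. High-fat control replicate 1 had the highest mean of the 12 arrays for stellate (7.70), cholangiocyte (5.66) and lymphocyte (5.45) markers. It was also highest for Kupffer cell and macrophage markers (8.10) and, close to low-fat control replicate 2 (3.76), for neutrophil markers (3.77). All 10 members lay above their own mean in high-fat control replicate 1. Low-fat MSX replicate 3 came next for stellate (7.34) and cholangiocyte (5.39) markers. Without high-fat control replicate 1 the extract difference under the high-fat diet was −0.61 for Nqo1, −0.33 for Srxn1 and −0.22 for Hmox1, and the part of these markers in the differences was not tested.

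**Figure D3:**
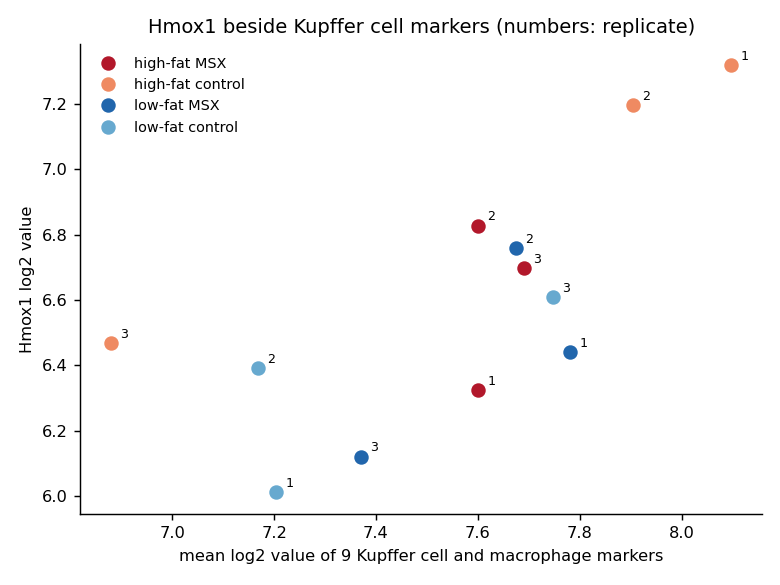
Log2 value of Hmox1 (vertical axis) against the mean log2 value of 9 Kupffer cell and macrophage markers (horizontal axis) in the 12 arrays, coloured by group and numbered by replicate. High-fat control replicates 1 and 2 lie at the upper right, with Hmox1 at 7.32 and 7.20, and replicate 3 at the far left, with Hmox1 at 6.47.

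Osgin1 encodes a stress-induced growth inhibitor that is a known NRF2 target. Its values were 10.17, 10.18 and 9.77 in high-fat MSX livers, against 9.72, 9.64 and 9.66 in high-fat control livers. They were 9.41, 8.74 and 9.58 in low-fat MSX livers, against 9.18, 9.53 and 9.61 in low-fat control livers. In both extract states the high-fat arrays lay above the low-fat arrays without overlap, as for 0.329% of all genes, though the lowest high-fat array, at 9.64, was close to the highest low-fat array, at 9.61.

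Osgin1 had the widest range of group means among the members, 0.79. High-fat MSX exceeded low-fat MSX by that amount (SE 0.20, limma adjusted p = 0.944), at rank 31 of all genes, and by 0.54 without low-fat MSX replicate 2. High-fat control differed from low-fat control by 0.24 (95% interval −0.19 to 0.66), or 0.11 without low-fat control replicate 1, and the average diet effect was 0.52 (SE 0.14, limma adjusted p = 0.531). The extract difference was 0.36 under the high-fat diet (limma adjusted p = 0.768) and −0.19 under the low-fat diet, and the test of the difference between them gave 0.56 (SE 0.28, limma adjusted p = 0.955). Without low-fat MSX replicate 2 the low-fat extract difference was 0.06 and the difference between both extract effects 0.31. The order of its group means was high-fat MSX, high-fat control, low-fat control and low-fat MSX, and no neighbours in that order differed past the threshold where a comparison was made. Over the 12 arrays the genes with the pattern most like that of Osgin1, by Pearson's r, were Tcp10a (0.89), Cyp2c65 (0.88) and D330041H03Rik (0.85), all dim, with group means of at most 4.44.

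Of the regulators themselves, Nfe2l2 was at 9.12, 9.01 and 8.99 in high-fat MSX livers, 9.21, 8.85 and 8.86 in high-fat control livers, 9.26, 9.09 and 8.33 in low-fat MSX livers and 8.74, 8.78 and 9.04 in low-fat control livers. The groups overlapped in all 4 comparisons, and low-fat MSX replicate 3 was the lowest array. The extract difference of Nfe2l2 was 0.07 under the high-fat diet (95% interval −0.37 to 0.51) and 0.04 under the low-fat diet (95% interval −0.40 to 0.48), and under the low-fat diet 0.32 without that array and −0.14 without low-fat MSX replicate 1. Its diet difference without extract was 0.12, and 0.00080 without high-fat control replicate 1. With extract it was 0.15, and −0.13 without low-fat MSX replicate 3. Keap1 averaged 7.78 ± 0.06 in high-fat MSX, 7.78 ± 0.12 in high-fat control, 7.61 ± 0.18 in low-fat MSX and 7.79 ± 0.20 in low-fat control livers (SD, n = 3 each). Its largest difference was −0.18 with MSX under the low-fat diet (95% interval −0.47 to 0.11), where its other probe set had −0.10. Without low-fat MSX replicate 3 it was −0.076, and the difference of Keap1 between high-fat MSX and low-fat MSX was 0.071 in place of 0.18.

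**Figure D4:**
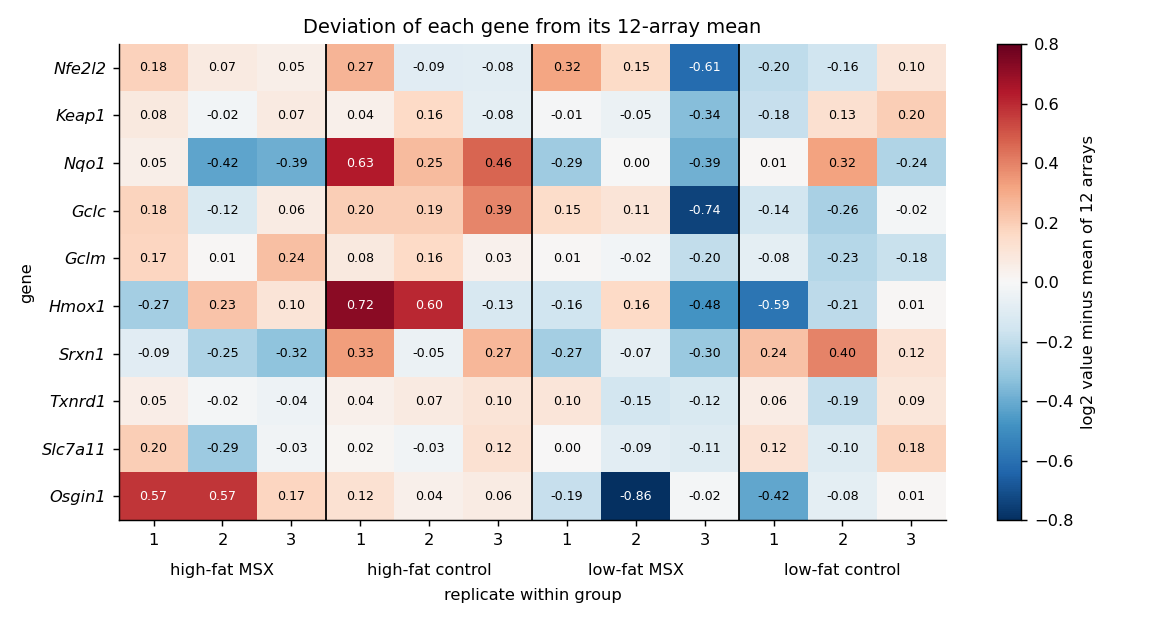
Log2 value of each gene (rows) in each array (columns, by group and replicate) minus the gene's mean over 12 arrays, printed in the cell and shown by colour, red above and blue below. The column of low-fat MSX replicate 3 is below 0 for all 10 genes, with −0.61 for Nfe2l2 and −0.74 for Gclc, and that of high-fat control replicate 1 is above 0 for all 10.

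Other genes of the pathway came from 7 lists of known genes. Of 13 measured NRF2 regulators and partners, 0 passed the threshold in any of the 7 comparisons. Sqstm1, which encodes p62, a scaffold that can sequester KEAP1, had a log2 difference of −0.27 with MSX under the high-fat diet (limma adjusted p = 0.707) and of −0.39 under the low-fat diet (limma adjusted p = 0.406). It lay between 10.12 and 10.20 in high-fat MSX livers, against 10.39 to 10.47 in high-fat control livers, and between 9.63 and 10.08 in low-fat MSX livers, against 10.26 to 10.31 in low-fat control livers. Nfe2l1, an NRF2 relative that controls proteasome genes, had −0.24 and −0.25 on the high-fat and the low-fat diet. For Sqstm1 and Nfe2l1 the MSX arrays all lay below the controls of their diet, a pattern of 0.821% of all genes. Both were named for their low p among the 13, so that their separation is not independent of that choice. Of the 13, 6 lay above 0 and 7 below under either diet with MSX. Their medians were −0.00071 under the high-fat and −0.0058 under the low-fat diet.

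Among 11 measured glutathione genes 0 passed. Gpx4, the glutathione peroxidase that reduces lipid hydroperoxides, lay between 7.61 and 7.77 in high-fat MSX livers, against 7.92 to 8.27 in high-fat control livers, and between 7.60 and 7.64 in low-fat MSX livers, against 7.90 to 8.11 in low-fat control livers. As with Srxn1, the MSX arrays all lay below the controls of their diet, a pattern of 0.821% of all genes. Gpx4 was named for its low p among these 11 genes, so that its separation is not independent of that choice. Its average extract effect was −0.42 (SE 0.08, limma adjusted p = 0.0625), with −0.42 on the high-fat and −0.41 under the low-fat diet. Chac2, a cytosolic enzyme that breaks down glutathione, had an average extract effect of 0.30 (limma adjusted p = 0.313).

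Of 12 measured genes of the thioredoxin and peroxiredoxin systems, 0 passed, and in the average extract effect 3 had an unadjusted p under 0.05, all higher, where 5.2% of all genes were higher by that measure. Txnrd3, a thioredoxin and glutathione reductase best known from testis, had an average extract effect of 0.37 (limma adjusted p = 0.247), and Sesn1, a stress-induced sestrin, of 0.32 (limma adjusted p = 0.354). Of 7 measured iron and heme genes, 0 passed. Slc40a1, the iron exporter ferroportin, had an average extract effect of 0.35 (limma adjusted p = 0.282), and Hmox2, the constitutive heme oxygenase, of 0.22 (limma adjusted p = 0.469).

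Conjugation and transport genes, 23 measured, included 0 past the threshold. For the diet without extract 7 were higher and 1 lower at an unadjusted p under 0.05, with a median of 0.14, where 3.44% of all genes were higher and 3.34% lower by that measure. For the diet with extract 3 were higher and 1 lower, with a median of −0.02. Over all genes 2.39% were higher and 2.18% lower there. For the extract under the high-fat diet 1 was higher and 4 lower, where 3.48% of all genes were higher and 3.51% lower. Under the low-fat diet 3 were higher and 2 lower with the extract, where 4.03% of all genes were higher and 4.03% lower. Ugdh, which makes the sugar donor of glucuronidation, averaged 10.44 ± 0.18 in high-fat control livers and 9.66 ± 0.06 in low-fat control livers (SD, n = 3 each), a difference of 0.79 (SE 0.13, limma adjusted p = 0.0826). With MSX under the high-fat diet Ugdh had −0.51 (SE 0.13, limma adjusted p = 0.36). The difference between its extract effects was −0.47 (limma adjusted p = 0.955).

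Genes induced by ATF4, a factor of the integrated stress response that also controls Slc7a11, were measured in 13 cases, and 0 passed. Vldlr, a lipoprotein receptor, had 0.99 for the diet without extract (limma adjusted p = 0.396) and −0.80 for the extract under the high-fat diet (limma adjusted p = 0.563). Cth, which makes cysteine from cystathionine, had −0.44 for the diet without extract (limma adjusted p = 0.546) and −0.42 for the extract under the low-fat diet (limma adjusted p = 0.434).

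**Figure D5:**
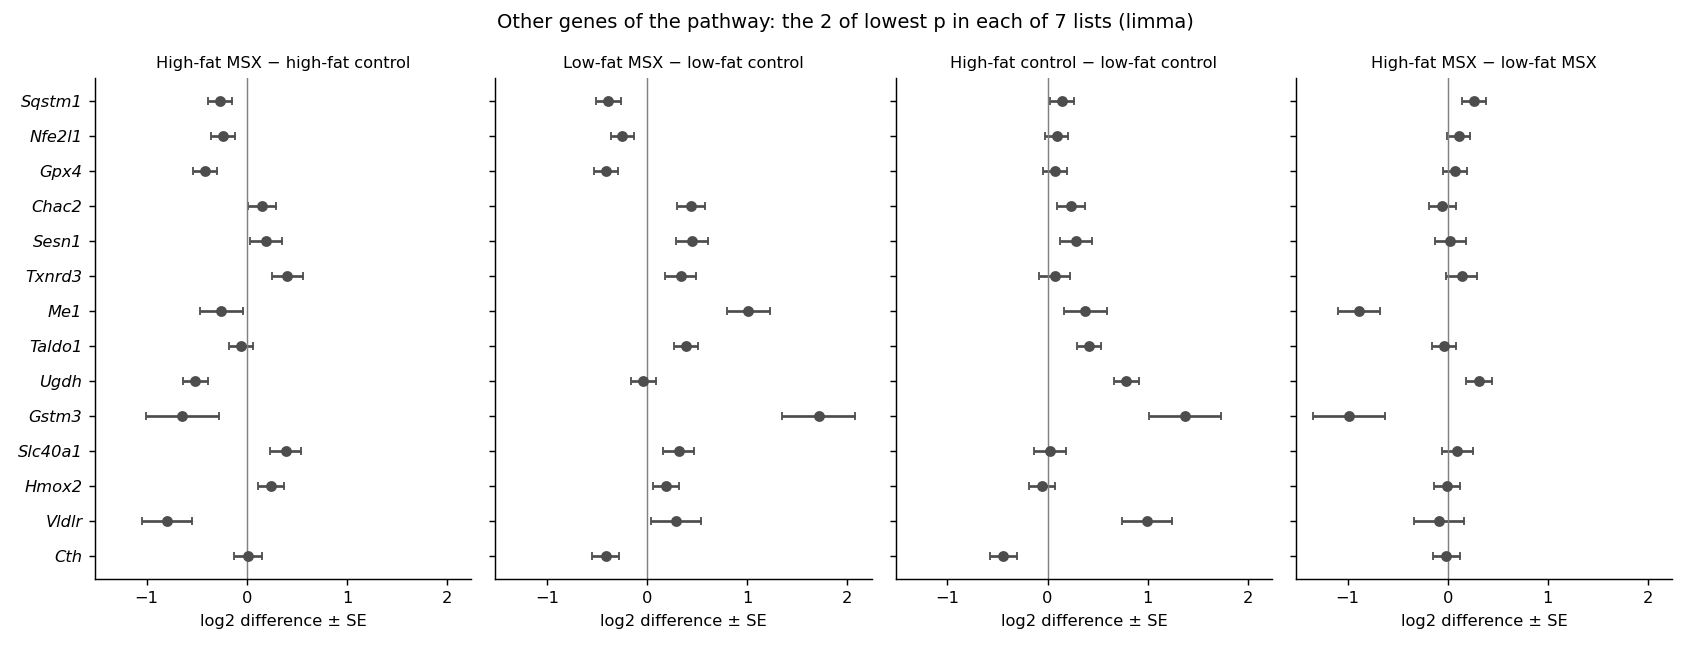
Log2 difference of group means ± SE (horizontal axis) in the 4 comparisons of 2 groups for 14 other genes, the 2 of lowest p in each of 7 lists. Gpx4 and Sqstm1 lie left of 0 in both extract comparisons (−0.42 and −0.41, −0.27 and −0.39), as do Nfe2l1 and Ugdh. Chac2, Sesn1, Txnrd3 (0.41 and 0.34), Slc40a1 (0.39 and 0.32) and Hmox2 lie right of 0 in both. The other genes change side between the diets, and none of the 14 passed the threshold.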

How the data were processed

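The authors deposited log2 values per probe set. Per the submitters' processing notes the Transcriptome Analysis Console was used, whose version is, like the normalization, not given in the sources used here. The values were used as deposited, for 12 arrays and 41345 probe sets. The platform annotation gave 23521 probe sets 1 gene symbol and 1814 several, and left 16010 unnamed. Genes were reduced to the probe set of highest mean, which left 22180, with no filter on dim genes. Names were checked against a GRCm38.p6 table, which matched the Entrez identifiers of 23328 of the probe sets with 1 symbol and changed 0 symbols. Tests used limma 3.58.1 (R 4.3.3), two-sided, in a model of 4 group means over all arrays, with 8 residual and 5.18 prior degrees of freedom and Benjamini-Hochberg adjustment over all genes within each of 7 comparisons. The 7 were the 4 between 2 groups, the difference of the extract effects, and the average extract and diet effects. P-values rest on the spread between a group's biological replicates, as labelled, and the number of arrays limits the precision.

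Named genes were the 10 members, the genes past the threshold or else the 2 of lowest p in each of 7 lists, and the 3 genes most like the member with the widest range of group means. The members and lists were chosen with earlier results of these data known. Listed genes without a probe set of 1 symbol are not counted as measured. The procedure was tested on simulated data. Alternatives changed the prior variance, weights, scaling, dim-gene filter, probe set rule, replicate block and arrays used.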

Additional observations from a re-analysis of the deposited data

How the results depend on the processing

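Each comparison was recomputed under up to 9 other settings and without each of the 12 arrays. The count of members past the threshold stayed at 0 under all of these but for the average extract effect, where it was 1, Srxn1, with a trended and robust prior variance (adjusted p = 0.0256) and with dim genes left out (adjusted p = 0.0356). The second of these tests fewer genes, 12867, and the cause of the first was not tested. With any 1 array left out the count was 0 in all 7 comparisons. The members' median difference for the diet with extract lay between 0.0095, without low-fat MSX replicate 3, and 0.22. No paired analysis was taken as the result, since 5 of 12 arrays correlated best with their own number and same-numbered pairs had correlations between −0.13 and 0.11. Between high-fat control and high-fat MSX, though, same-numbered pairs had 0.11, 0.08 and 0.11, and the other pairs lay between −0.089 and −0.0016. The correlations are of deviations from group means, which sum to 0 within a group, so that these other pairs are not independent of the same-numbered ones. The highest correlation of any pair, 0.16, was between arrays of different numbers, low-fat control replicate 2 and high-fat MSX replicate 3. With the replicate block 0 members passed, Srxn1 had adjusted p = 0.143 for the average extract effect, and the count of all genes past the threshold in the low-fat extract comparison was 20 in place of 35.

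Of 1433 recomputed values of single members, 68 changed sign, none of them of a called difference, and 4 of the 68 came from the quantile and median scalings, all of differences under 0.03. Counts over all genes moved more. For the extract on the high-fat diet 8 became 2 to 10 without 1 array and 2 to 28 under the other settings. On the low-fat diet 35 became 6 to 28 and 10 to 77, for the average extract effect 58 became 34 to 63 and 34 to 151, and for the diet without extract 4 became 1 to 7 and 1 to 11. For the average diet effect 5 became 1 to 7 and 1 to 11. Slc7a11 lay below the median signal of all probe sets.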

Other observations

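Genes that supply NADPH, the reductant that glutathione and thioredoxin reductases use, were 4 measured of 6 listed. For the extract on the low-fat diet 4 of 4 lay above 0 and 3 had an unadjusted p under 0.05, where 49.7% of all genes lay above 0 and 4.03% were higher at such a p. On the high-fat diet 4 of 4 lay below 0 and 0 had such a p, where 3.51% of all genes were lower at it. For the diet without extract 4 of 4 lay above 0 and 3 had such a p, where 48.8% lay above 0 and 3.44% were higher at it. For the diet with extract 4 of 4 lay below 0 and 1 had such a p, where 2.18% were lower at it. The 4 comparisons share arrays, and 0 of the 4 genes passed the threshold in any. The difference of the extract effects had a median of −0.54 over the 4, against 0.01 over all genes. Me1, malic enzyme, averaged 9.26 ± 0.43 in high-fat MSX livers and 9.52 ± 0.13 in high-fat control livers, and 10.15 ± 0.39 in low-fat MSX livers and 9.14 ± 0.13 in low-fat control livers (SD, n = 3 each). The difference of its extract effects, high-fat minus low-fat, was −1.27 (SE 0.30, limma adjusted p = 0.718). Taldo1, transaldolase of the pentose phosphate pathway, had −0.45 in the same test (limma adjusted p = 0.955).

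Gstm3, a glutathione transferase, averaged 5.83 ± 0.09 in high-fat MSX livers and 6.47 ± 0.89 in high-fat control livers, and 6.81 ± 0.29 in low-fat MSX livers and 5.10 ± 0.57 in low-fat control livers (SD, n = 3 each). Its extract difference was −0.64 on the high-fat diet (limma adjusted p = 0.778) and 1.71 on the low-fat diet (SE 0.36, limma adjusted p = 0.113). The difference between these was −2.36 (SE 0.51, limma adjusted p = 0.664), which missed the threshold. Members of the Gstm family are similar in sequence, and cross-hybridization between them was not tested.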
